A study of Mus musculus with 12 samples.

Results

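The 45 genes described here build the machinery that copies DNA and divides the cell: 23 genes of DNA replication, 5 genes that control entry into S phase (G1/S control) and 17 genes of mitosis. They were chosen by name as well-known members of these processes, with earlier results of these data known. Each was read from the array probes whose accession carries its symbol. Of the 45 genes 44 had a named probe, 59 probes in all, and all 44 were tested among 20882 genes. The gene without one is Rrm2. The 20882 also include tested probes without a gene name, each counted as a gene under its array identifier. Every share and median of all genes below is taken over both kinds. Every one of the 44 was well above background on all 12 arrays, so none entered the test only through the group in which it was high.

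The arrays are 1-colour Agilent expression arrays of total RNA from mouse cells, labelled with the dye Cy3. They form 3 groups of 4 arrays: mESC, which are mouse embryonic stem cells, followed by a day 9 and a day 14 group of a cardiomyocyte differentiation. For every sample the labels give the same culture: plates coated with crosslinked ELP (elastin-like polypeptide, an artificial polymer built from elastin repeats), 2 days in medium without LIF, the factor that holds mouse stem cells undifferentiated, and then 12 days in a basal medium with 2.5% knockout serum replacement. No label gives the time at which mESC were collected, all 12 samples carry the cell type "embryonic stem cells", and the line is not named. Nothing in the labels says that replicates came from separate cultures, and p-values therefore cover no more than the variation among these samples, which can be technical. Each group was hybridised on a slide of its own, so an effect of the slide and one of the group cannot be told apart.

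Before a cell copies its DNA, the origin recognition complex, Cdc6 and Cdt1 load the ring of Mcm2 to Mcm7 onto replication origins, and Cdc45, the GINS complex and Mcm10 later turn that ring into the moving helicase. E2F transcription factors switch these genes on late in G1, whereas the genes of mitosis are switched on in G2 by the MuvB complex with B-Myb and FoxM1. Mouse embryonic stem cells are known for fast division with a short G1 phase, and heart muscle cells for leaving the cell cycle after birth.

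The promoters of both classes were read from the RefSeq table for the assembly GRCm38.p6, which gives 250 bases before and 50 bases after each transcription start and held 36 of the 44 genes. The 6 shown here were picked by motif and by their change at day 14. Mcm3 and Mcm5 are the replication genes with an E2F motif that fell most. Aurka and Bub1b are the mitosis genes with a CHR motif that fell most. Orc1 is the gene with the lowest fold change at day 14, and Mki67 is a gene with CHR motifs whose level was not lower. Ccnb1, the mitosis gene that fell most, had no CHR match and is not shown. Capitals mark the E2F motif, searched as TTTCCCGC or TTTGGCGC, or the CHR motif, searched as TTTGAA, each on either strand, so that the reverse complements GCGGGAAA, GCGCCAAA and TTCAAA count too. Each runs 5′ to 3′ on the strand of its gene.
Mcm3 lies at chr1:20820263-20820562 on the minus strand, Mcm5 at chr8:75109259-75109558 on the plus strand, Aurka at chr2:172370521-172370820 on the minus strand, Bub1b at chr2:118597961-118598260 on the plus strand, Orc1 at chr4:108579204-108579503 on the plus strand and Mki67 at chr7:135716330-135716629 on the minus strand.
Mcm3: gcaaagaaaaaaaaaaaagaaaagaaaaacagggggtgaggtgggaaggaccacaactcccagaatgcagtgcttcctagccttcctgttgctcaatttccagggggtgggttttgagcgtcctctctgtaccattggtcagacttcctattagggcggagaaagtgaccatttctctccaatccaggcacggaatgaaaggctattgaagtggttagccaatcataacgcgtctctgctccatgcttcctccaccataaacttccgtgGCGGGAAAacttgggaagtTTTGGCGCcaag
Mcm5: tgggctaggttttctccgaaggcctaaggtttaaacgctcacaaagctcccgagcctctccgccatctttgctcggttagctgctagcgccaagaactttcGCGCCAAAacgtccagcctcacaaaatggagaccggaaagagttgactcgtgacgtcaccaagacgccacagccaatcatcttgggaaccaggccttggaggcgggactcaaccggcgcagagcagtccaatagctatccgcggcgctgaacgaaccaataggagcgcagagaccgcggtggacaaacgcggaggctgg
Aurka: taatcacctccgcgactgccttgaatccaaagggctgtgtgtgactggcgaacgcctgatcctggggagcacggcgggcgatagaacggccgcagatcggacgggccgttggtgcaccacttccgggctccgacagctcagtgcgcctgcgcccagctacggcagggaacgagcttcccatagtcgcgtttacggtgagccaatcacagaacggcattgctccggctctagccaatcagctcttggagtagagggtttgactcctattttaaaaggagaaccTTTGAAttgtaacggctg
Bub1b: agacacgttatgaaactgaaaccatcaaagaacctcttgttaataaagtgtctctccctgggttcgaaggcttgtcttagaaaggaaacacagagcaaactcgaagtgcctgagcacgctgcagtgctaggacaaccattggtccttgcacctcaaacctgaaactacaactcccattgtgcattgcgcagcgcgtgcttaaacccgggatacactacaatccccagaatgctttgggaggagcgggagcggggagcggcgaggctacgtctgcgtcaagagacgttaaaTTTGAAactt
Orc1: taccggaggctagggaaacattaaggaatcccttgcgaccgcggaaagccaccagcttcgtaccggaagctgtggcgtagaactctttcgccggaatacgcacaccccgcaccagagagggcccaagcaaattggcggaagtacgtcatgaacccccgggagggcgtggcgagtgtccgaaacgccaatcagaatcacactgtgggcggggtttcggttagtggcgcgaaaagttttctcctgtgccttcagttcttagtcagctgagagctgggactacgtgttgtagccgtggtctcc
Mki67: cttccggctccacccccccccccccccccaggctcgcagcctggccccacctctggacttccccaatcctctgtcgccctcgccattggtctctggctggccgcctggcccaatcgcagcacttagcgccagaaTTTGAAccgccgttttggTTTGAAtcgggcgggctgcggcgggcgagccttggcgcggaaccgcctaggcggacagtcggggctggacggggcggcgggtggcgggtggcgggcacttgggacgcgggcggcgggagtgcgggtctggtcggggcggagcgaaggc

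The E2F motif lay in 7 of 18 replication promoters (38.9%) and in 0 of 14 mitosis promoters, beside 1.80% of the 27025 genes with a promoter in the table. The CHR motif lay in 10 of 14 mitosis promoters (71.4%) and in 3 of 18 replication promoters (16.7%), beside 20.2% of all. The third motif searched, CCAAT, which NF-Y binds, was held by 13 of 18 replication promoters (72.2%) and 12 of 14 mitosis promoters (85.7%), beside 41.1% of all. In the longer lists of further genes given below, the E2F motif lay in 8 of 37 replication genes (21.6%) and 3 of 42 mitosis genes (7.14%), the CHR motif in 6 (16.2%) and 26 (61.9%), and CCAAT in 15 (40.5%) and 31 (73.8%). The share of further replication genes with CCAAT was thus close to that of all genes. In Mcm3 the E2F matches begin 19 and 38 bases after the start site, and in Mcm5 the match begins 149 bases before it. A match is a description of letters and not a site of binding, and other spellings of a motif were not searched. A gene without a match can therefore still hold a variant of the motif. Orc1, without a match to the letters searched for the first 2 motifs in this window, holds CCAAT at 2 places.

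**Figure D1:**
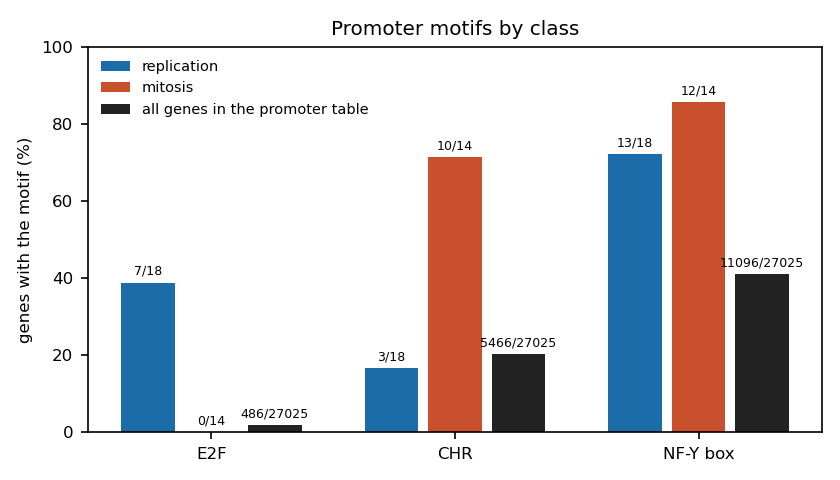
Share of genes (%, vertical axis) whose promoter window holds an E2F motif, a CHR motif or an NF-Y box, for replication genes, mitosis genes and all genes in the promoter table, with the counts above each bar. The E2F bar is at 38.9% for replication and at 0 for mitosis, and the CHR bar is at 16.7% for replication and at 71.4% for mitosis.

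Levels below are log2 processed signals relative to the array's own 75th percentile of signal, and changes are log2 fold changes ± SE from limma with n = 4 arrays in each group. A gene is said to have risen or fallen only at a Benjamini-Hochberg adjusted p under 0.05, taken over all genes tested, together with a log2 fold change of 1 or more in size. The 75th percentile ran from 347 to 508 signal units over the 12 arrays and between 59.5% and 67.9% of the probes on an array exceeded background. The median of all genes lay at −0.16 at day 9 and −0.19 at day 14 against mESC, and at −0.09 between the days. With each array scaled by its median instead, that median moved to −0.51 at day 14, and with the normexp background correction to 0.09 at day 14 and 0.16 between the days. Relative to it, the replication and mitosis medians at day 14 were −1.52 and −0.997, which scaling by the median cannot alter, −1.18 and −0.56 with quantile normalization and −1.82 and −1.08 with normexp. Lower calls made up 51.3% of all calls at day 14 against mESC and 63.6% with median scaling, and 26.1% and 41.0% between the days.

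At both days a larger share of the replication genes than of the mitosis genes fell relative to the stem cells. At day 14 against mESC 19 of 22 replication genes fell, 10 of 17 mitosis genes and 2 of 5 G1/S genes, while 24.0% of all genes tested were called lower. At day 9 the counts were 16 of 22, 5 of 17 and 2 of 5, beside 21.0% of all genes. In the longer lists of further genes given below, 17 of 44 replication and 17 of 50 mitosis genes fell at day 9. At day 14 these counts were 30 of 44 and 29 of 50, so the shares of the 2 classes lay closer together in those lists. In bulk RNA, fewer dividing cells and less RNA of these genes per cell cannot be told apart. With quantile normalization the day 9 counts were 10 of 22 replication and 1 of 17 mitosis genes, beside 4040 of all 20882 genes called lower. Cdt1, Mcm2, Mcm6, Mcm7, Prim1, Rpa2, Aurka, Bub1, Bub1b and Top2a lost their day 9 calls there, at values of −0.96 to −0.79.

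With the adjusted p alone and no minimum change, all 22 replication genes and 16 of 17 mitosis genes were lower at both days, while 47.0% of all genes were lower at day 9 and 48.2% at day 14. Among the 15898 genes above background on all 12 arrays, 8256 were lower at day 9 and 8712 at day 14 with the adjusted p alone. Mki67 and Ccne2 were higher at both days by that measure, as were 36.4% and 36.9% of all genes. On every day 9 array 22 of 22 replication and 15 of 17 mitosis genes lay below every mESC array, and the day 14 arrays gave the same counts. Of all genes 44.8% at day 9 and 47.7% at day 14 were parted in this way.

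The median change of the replication genes was −1.25 at day 9 and −1.70 at day 14 against mESC, and that of the mitosis genes was −0.78 and −1.18. The 2 sets of changes share the mESC arrays. At day 14 19 of 22 replication genes lay below the mitosis median, and 1 of 17 mitosis genes, Ccnb1, lay below the replication median. Taken array by array, the replication median minus the mitosis median, both relative to the mESC mean, was −0.01 ± 0.02 in mESC, −0.52 ± 0.04 at day 9 and −0.51 ± 0.03 at day 14 (SD, n = 4). The mESC arrays ran from −0.04 to 0.02, the day 9 arrays from −0.55 to −0.47 and the day 14 arrays from −0.54 to −0.49, so both days lay apart from mESC and overlapped each other. This gap was not tested, since the genes are not replicates of a condition.

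**Figure D2:**
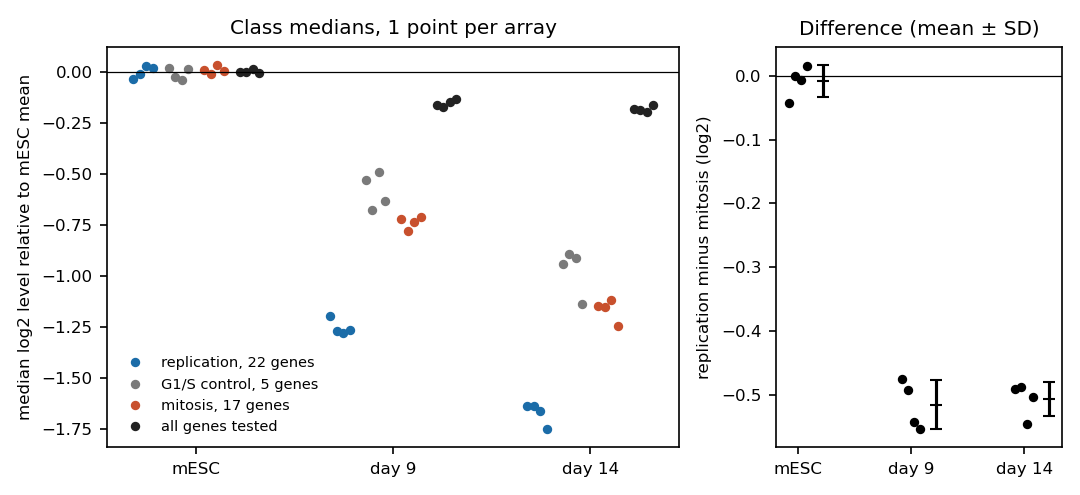
Left, the median log2 level of each class relative to its mESC mean on each of the 12 arrays, with mESC, day 9 and day 14 from left to right; right, the replication median minus the mitosis median on each array with its mean ± SD. Replication medians averaged −1.25 at day 9 and −1.67 at day 14, below the mitosis medians of −0.74 and −1.17 on every array of both days.

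**Figure D3:**
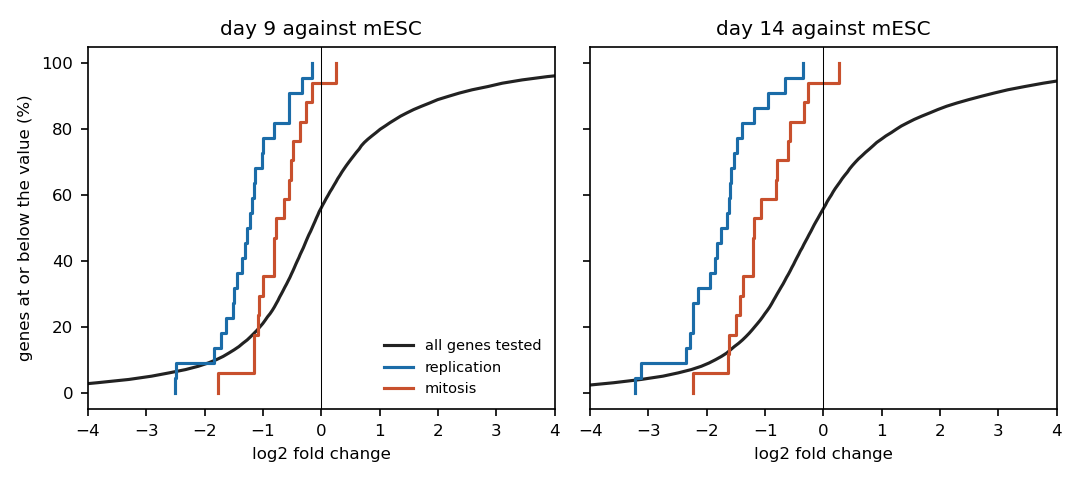
Cumulative share of genes (%, vertical axis) at or below each log2 fold change against mESC for the 22 replication genes, the 17 mitosis genes and all 20882 genes tested. The replication curve lies left of the mitosis curve through most of its range, with medians of −1.70 and −1.18 at day 14, and the curve of all genes runs to lower and to higher values than either.

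Every gene of origin licensing, 9 of 9, had fallen at day 14 relative to mESC, and 8 of the same 9 at day 9. The counts of each role, here and below, stand beside 24.0% of all genes called lower at day 14 and 21.0% at day 9. Orc1, the largest subunit of the origin recognition complex, read 1.61, 1.69, 1.69 and 1.81 on the mESC arrays, −0.75, −0.77, −0.85 and −0.82 at day 9 and −1.49, −1.56, −1.52 and −1.53 at day 14. The 3 groups did not overlap, and Orc1 fell by 2.50 ± 0.05 at day 9 (adjusted p = 1.12e-12) and by 3.23 ± 0.05 at day 14 (adjusted p = 1.51e-13), or 9.36-fold. At day 14 780 of the 20882 genes had a lower fold change. Mcm3, a subunit of the helicase ring whose promoter holds 2 E2F motifs, read 3.65, 3.67, 3.74 and 3.82 on the mESC arrays, 1.95, 1.94, 1.94 and 1.68 at day 9 and 1.47, 1.41, 1.33 and 1.25 at day 14. Day 9 replicate 4 stood below the other day 9 arrays and still above every day 14 array. Mcm3 fell by 1.84 ± 0.07 and 2.35 ± 0.07 at the 2 days. Cdt1, which brings the ring to origins, had the smallest day 14 change of the role and read 6.20, 6.10, 6.21 and 6.20 on the mESC arrays, 4.95, 4.85, 4.92 and 4.94 at day 9 and 4.74, 4.57, 4.70 and 4.56 at day 14. It fell by 1.26 ± 0.05 and 1.54 ± 0.05, and no arrays of different groups overlapped.

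The other subunits of the ring also fell at day 14. There Mcm5 fell by 2.24 ± 0.06, Mcm7 by 1.83 ± 0.04, Mcm2 by 1.76 ± 0.13, Mcm4 by 1.61 ± 0.05 and Mcm6 by 1.59 ± 0.04. At day 9 Mcm4 stood at −0.99 ± 0.05, just short of the fold a call asks for, and passed it with median scaling (−1.12), without day 9 replicate 1 (−1.01) or 4 (−1.03) and without mESC replicate 1 (−1.002); the other 4 had fallen by 1.15 to 1.63. Cdc6, which loads the ring together with Cdt1, fell by 1.23 ± 0.05 at day 9 and 2.14 ± 0.05 at day 14. Its second probe stood at 0.32 ± 0.11 at day 9 and −1.01 ± 0.11 at day 14, so the day 9 value of Cdc6 depends on the probe. With the mean over both probes it was −0.46 at day 9 and not called.

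Among the genes that activate the helicase 3 of 4 fell at both days. Mcm10, a scaffold of the active helicase, read 5.00, 5.05, 5.13 and 5.10 on the mESC arrays, 2.65, 2.54, 2.57 and 2.54 at day 9 and 2.04, 1.85, 1.98 and 1.90 at day 14. All 4 mESC arrays were near 5 and every array of both days was far below. It fell by 2.50 ± 0.05 at day 9 and 3.13 ± 0.05 at day 14 (adjusted p = 3.86e-13), 8.75-fold. Gins1, a subunit of the GINS complex, read 3.07, 3.09, 3.12 and 3.08 on the mESC arrays, 1.66, 1.57, 1.54 and 1.63 at day 9 and 0.82, 0.79, 0.81 and 0.77 at day 14. The groups did not overlap and Gins1 fell by 1.49 ± 0.04 and 2.29 ± 0.04; its second probe fell by 1.51 and 2.31. Gins2, another subunit of the same complex, read 3.32, 3.35, 3.51 and 3.38 on the mESC arrays, 2.93, 2.75, 2.86 and 2.78 at day 9 and 2.47, 2.42, 2.47 and 2.38 at day 14. Its groups were parted too, yet the changes of −0.56 ± 0.06 and −0.95 ± 0.06 were not called; at day 14 Gins2 was called lower with median scaling (−1.27) and with normexp (−1.01). Cdc45, the third part of the active helicase, fell by 1.45 ± 0.07 and 1.95 ± 0.07.

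At the fork 7 of 7 genes fell at day 14 and 5 of 7 at day 9. Pole, the catalytic subunit of the leading-strand polymerase, read 3.52, 3.61, 3.57 and 3.60 on the mESC arrays, 1.90, 1.78, 1.79 and 1.97 at day 9 and 1.40, 1.29, 1.36 and 1.31 at day 14. The groups were apart, with falls of 1.71 ± 0.05 and 2.23 ± 0.05. Lig1, the ligase that seals the fragments of the lagging strand, read 5.95, 5.89, 6.05 and 5.92 on the mESC arrays, 4.55, 4.35, 4.42 and 4.45 at day 9 and 4.14, 4.08, 4.10 and 4.02 at day 14. It fell by 1.51 ± 0.05 and 1.87 ± 0.05, again without overlap. Pcna, the sliding clamp that holds polymerases on DNA, read 5.50, 5.58, 5.56 and 5.57 on the mESC arrays, 4.79, 4.75, 4.66 and 4.79 at day 9 and 4.44, 4.35, 4.33 and 4.35 at day 14. Pcna stood at −0.80 ± 0.04 at day 9, which was not called, and fell by 1.18 ± 0.04 at day 14; with quantile normalization the day 14 value was −0.70 and not called.

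At day 14 the changes of the other fork genes lay between those of Pole and Pcna. Prim1, the primase that starts each fragment, fell by 1.65 ± 0.05, Pola1, the polymerase that extends its primers, by 1.59 ± 0.05, and Rpa2, which coats single-stranded DNA, by 1.40 ± 0.04. Fen1, the nuclease that trims the flaps between fragments, read 2.18, 2.23, 2.25 and 2.35 on the mESC arrays, 1.80, 1.79, 1.74 and 1.48 at day 9 and 0.84, 0.82, 0.76 and 0.68 at day 14. Fen1 stood at −0.55 ± 0.07 at day 9, which was not called, and fell by 1.48 ± 0.07 at day 14 against mESC.

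Of the genes of nucleotide supply 0 of 2 were called at either day by limma. Both had an adjusted p under 0.05 at both days, with changes short of the fold a call asks for. Rrm1, the large subunit of ribonucleotide reductase, which makes deoxyribonucleotides, read 4.12, 4.10, 4.24 and 4.18 on the mESC arrays, 3.98, 3.99, 3.96 and 4.04 at day 9 and 3.90, 3.80, 3.85 and 3.69 at day 14. Its groups were parted by little, and the changes of −0.17 ± 0.05 and −0.35 ± 0.05 turned to 0.07 and 0.02 with quantile normalization. Tyms, thymidylate synthase, read 4.30, 4.39, 4.39 and 4.38 on the mESC arrays, 4.16, 3.90, 3.99 and 4.09 at day 9 and 3.82, 3.71, 3.71 and 3.58 at day 14. Its changes were −0.33 ± 0.07 and −0.66 ± 0.07, without overlap between mESC and either day, and its second probe stood at −0.31 and −0.64.

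**Figure D4:**
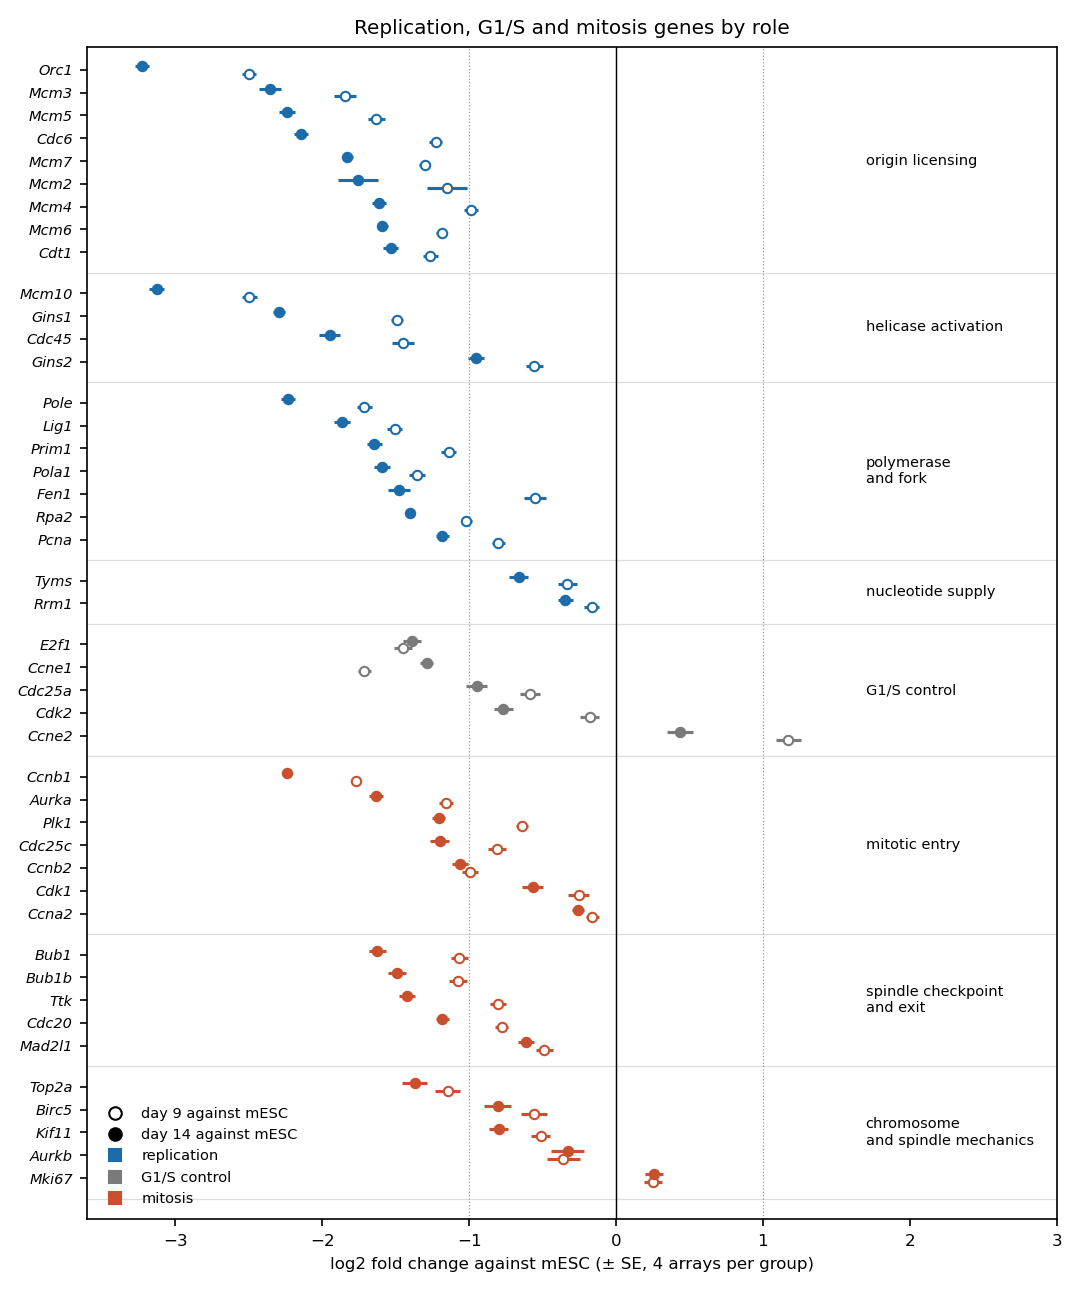
Log2 fold change against mESC (horizontal axis, ± SE, 4 arrays per group) of the 44 genes, grouped by role, with open circles for day 9 and filled circles for day 14; dotted lines mark −1 and 1. Orc1 and Mcm10 lie farthest to the left at −3.23 and −3.13, Rrm1 and Ccna2 lie close to 0 and turn to positive values with quantile normalization, and Mki67 lies at 0.26, or −0.06 with median scaling at day 14.

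Control of the G1/S transition was mixed. E2f1, an E2F factor that activates the replication genes, read 0.86, 0.73, 0.89 and 0.84 on the mESC arrays, −0.48, −0.70, −0.61 and −0.70 at day 9 and −0.53, −0.52, −0.57 and −0.63 at day 14. Both days lay below mESC and overlapped each other, and E2f1 fell by 1.45 ± 0.06 at day 9 and 1.39 ± 0.06 at day 14. Ccne1, the cyclin E1 that drives S phase entry with Cdk2, read 4.62, 4.73, 4.63 and 4.75 on the mESC arrays, 2.94, 3.02, 2.92 and 2.98 at day 9 and 3.46, 3.37, 3.39 and 3.34 at day 14. The lowest arrays were those of day 9, with a fall of 1.71 ± 0.05, and at day 14 it had fallen by 1.29 ± 0.05 against mESC, where a second probe stood at −0.80 and was not called; with quantile normalization the day 14 value was −0.91 and not called.

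Its paralog Ccne2, cyclin E2, read −2.32, −2.53, −2.48 and −2.47 on the mESC arrays, −1.30, −1.41, −1.36 and −1.02 at day 9 and −1.89, −2.08, −2.08 and −2.01 at day 14. All day 9 arrays lay above all others, and Ccne2 rose by 1.17 ± 0.09 at day 9 (adjusted p = 1.21e-07), the 1 gene of the 44 that was called higher, while 20.1% of all genes were called higher. Its second probe rose by 1.04, and with the normexp background correction the value was 0.69 and not called. At day 14 Ccne2 stood at 0.43 ± 0.09. Cdk2, the kinase partner of both cyclins, stood at −0.77 ± 0.07 and Cdc25a, the phosphatase that frees Cdk2 from inhibition, at −0.95 ± 0.07 at day 14; neither was called. With median scaling both were called lower, at −1.09 and −1.27, and Cdc25a also with quantile normalization, at −1.07. A second probe of Cdk2 was well above background on 3 mESC arrays and on no array of either day, so no size is given for it. With the mean over both probes, which takes in that probe, Cdk2 was called lower at day 14.

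Genes of mitotic entry fell in 5 of 7 cases at day 14 and 2 of 7 at day 9, the day 9 count being near the 21.0% of all genes called lower. Ccnb1, the cyclin B1 that with Cdk1 starts mitosis, read 3.53, 3.51, 3.56 and 3.55 on the mESC arrays, 1.77, 1.75, 1.75 and 1.80 at day 9 and 1.31, 1.26, 1.35 and 1.28 at day 14. Arrays of a group agreed closely and the groups were far apart, with falls of 1.77 ± 0.04 and 2.24 ± 0.04 (adjusted p = 2.55e-13). The other 2 probes of Ccnb1 fell by 1.62 and 1.74 at day 14. Aurka, a kinase of spindle poles, read 5.28, 5.45, 5.44 and 5.40 on the mESC arrays, 4.17, 4.29, 4.27 and 4.20 at day 9 and 3.82, 3.76, 3.72 and 3.72 at day 14. It fell by 1.16 ± 0.05 and 1.64 ± 0.05 without overlap. Ccna2, the cyclin A2 used in S phase and in G2, read 3.65, 3.55, 3.59 and 3.61 on the mESC arrays, 3.45, 3.40, 3.39 and 3.51 at day 9 and 3.36, 3.29, 3.38 and 3.33 at day 14. Its changes of −0.16 ± 0.04 and −0.26 ± 0.04 turned to 0.07 and 0.08 with quantile normalization.

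Cdk1, the kinase that both cyclins activate, stood at −0.25 ± 0.07 at day 9 and −0.57 ± 0.07 at day 14 and was called at neither. Plk1, a kinase of mitotic entry and spindle assembly, fell by 1.21 ± 0.04 at day 14, Cdc25c, a phosphatase that activates Cdk1, by 1.20 ± 0.06 and Ccnb2, cyclin B2, by 1.07 ± 0.05. All 3 were short of a call at day 9, at −0.64 ± 0.04, −0.81 ± 0.06 and −0.99 ± 0.05; Ccnb2 was called there with median scaling (−1.12) and without day 9 replicate 4 (−1.04). At day 14 the calls of Plk1 and Ccnb2 ended with quantile normalization, at −0.80 and −0.61, and that of Cdc25c with normexp, at −0.99.

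In the spindle checkpoint, which delays anaphase until chromosomes are attached, 4 of 5 genes fell at day 14 and 2 of 5 at day 9. Of all genes 24.0% and 21.0% were called lower at these days. Bub1, a checkpoint kinase, read 3.06, 2.99, 3.11 and 2.96 on the mESC arrays, 2.01, 1.92, 1.94 and 1.96 at day 9 and 1.51, 1.35, 1.46 and 1.29 at day 14. It fell by 1.07 ± 0.06 and 1.63 ± 0.06 without overlap. A second probe of Bub1 fell by 1.23 at day 9 and stood at −0.78 at day 14, and between the days it stood at 0.45 where the first stood at −0.56. Bub1b, which holds back the anaphase-promoting complex, read 2.96, 2.99, 3.04 and 3.06 on the mESC arrays, 1.87, 2.13, 1.90 and 1.84 at day 9 and 1.53, 1.53, 1.52 and 1.50 at day 14. It fell by 1.08 ± 0.06 and 1.49 ± 0.06, with day 9 replicate 2 the highest of its group. Mad2l1, another inhibitor in the checkpoint, read 2.38, 2.40, 2.37 and 2.33 on the mESC arrays, 1.89, 1.91, 1.75 and 1.98 at day 9 and 1.86, 1.69, 1.74 and 1.74 at day 14. Both days lay below mESC and overlapped each other, and the changes of −0.49 ± 0.06 and −0.61 ± 0.06 were not called. Ttk, the kinase that starts checkpoint signalling, read −0.41, −0.40, −0.44 and −0.36 on the mESC arrays, −1.15, −1.33, −1.22 and −1.11 at day 9 and −1.79, −1.92, −1.78 and −1.82 at day 14. Its groups were apart and it fell by 1.43 ± 0.05 at day 14; with normexp the value was −0.97 and not called. Cdc20, the activator that the checkpoint restrains, fell by 1.18 ± 0.04 at day 14, or stood at −0.71 with quantile normalization and was not called.

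Among the genes of chromosome and spindle mechanics 1 of 5, Top2a, was called at each day, which is near the 21.0% and 24.0% of all genes called lower. Top2a, the topoisomerase that untangles sister chromatids, read 2.99, 2.91, 3.02 and 2.99 on the mESC arrays, 1.95, 1.99, 1.79 and 1.59 at day 9 and 1.68, 1.69, 1.60 and 1.45 at day 14. Both days lay below mESC and overlapped each other, and Top2a fell by 1.15 ± 0.09 and 1.37 ± 0.09. Birc5, survivin, a subunit of the chromosomal passenger complex, read 5.46, 5.67, 5.78 and 5.53 on the mESC arrays, 5.22, 4.85, 4.98 and 5.16 at day 9 and 4.86, 4.82, 4.80 and 4.73 at day 14. Its changes were −0.56 ± 0.09 and −0.81 ± 0.09, not called at either day. Kif11, the motor that pushes spindle poles apart, stood at −0.80 ± 0.06 at day 14, and its second probe, at −1.33 and called, was well above background on 4 mESC, 2 day 9 and 1 day 14 arrays. With median scaling Birc5 and Kif11 were called lower at day 14, at −1.13 and −1.12. Kif11 was also called lower at day 14 with the mean over both probes, at −1.06. Aurkb, the kinase of the passenger complex, stood at −0.33 ± 0.11 and its groups overlapped.

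Mki67, which encodes the proliferation marker Ki-67, a coat of mitotic chromosomes, read 3.90, 3.77, 3.77 and 3.89 on the mESC arrays, 4.13, 3.99, 4.08 and 4.13 at day 9 and 4.09, 3.98, 4.22 and 4.07 at day 14. Every array of both days lay above every mESC array, by little. The changes were 0.25 ± 0.06 (adjusted p = 0.00218) at day 9 and 0.26 ± 0.06 (adjusted p = 0.00174) at day 14, short of a call, and with median scaling the day 14 value was −0.06. A second probe of Mki67 stood at 0.24 and 0.22. Its promoter, shown above, holds the CHR motif at 2 places.

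**Figure D5:**
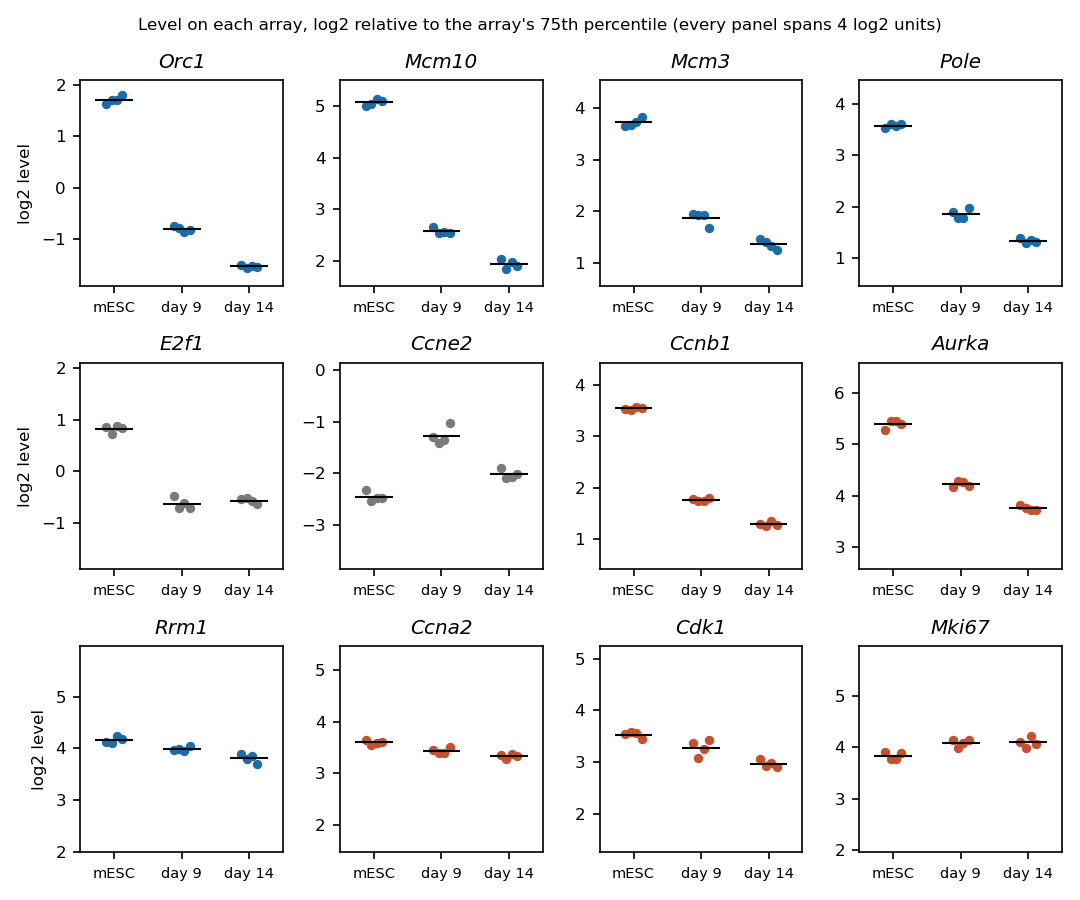
Level of 12 genes on each array (log2 relative to the array's 75th percentile, vertical axes each spanning 4 log2 units), with mESC, day 9 and day 14 from left to right, 1 point per array and a line at the group mean. Orc1, Mcm10, Mcm3, Pole, Ccnb1 and Aurka step down at both days, Ccne2 peaks at day 9, and Rrm1, Ccna2 and Mki67 stay within a narrow band in which the sign of some changes turns with the scaling.

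Between day 9 and day 14 none of the 44 genes was called by limma in either direction, while 3.60% of all genes were called lower and 10.2% higher. At an unadjusted p under 0.05, 39 of the 44 were lower and 1 higher, beside 8324 lower and 5622 higher of all 20882 genes. With the adjusted p alone all 22 replication genes, 12 of 17 mitosis genes and 3 of 5 G1/S genes were lower at day 14, beside 37.9% of all genes. On every day 14 array 22 of 22 replication and 11 of 17 mitosis genes lay below every day 9 array, beside 34.1% of all genes. The median change between the days was −0.51 for replication and −0.31 for mitosis genes.

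The largest changes between the days were those of Fen1 (−0.93 ± 0.07) and Cdc6 (−0.91 ± 0.05) among replication genes, of Ttk (−0.62 ± 0.05) among mitosis genes and of Ccne2 (−0.74 ± 0.09) in G1/S control. Fen1 and Cdc6 passed the fold with median scaling, at −1.12 and −1.10. Without that scaling the second probe of Cdc6 fell by 1.33 between the days. Ccne1 was higher at day 14 than at day 9 by 0.43 ± 0.05 with the adjusted p alone, as were 25.5% of all genes. E2f1 (0.06 ± 0.06), Aurkb (0.03 ± 0.11) and Mki67 (0.01 ± 0.06) were near 0 between the days and turned to −0.13, −0.16 and −0.18 with median scaling.

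Genes with and without a motif were set side by side. Among replication genes with a promoter the median change at day 14 was −1.83 for the 7 with an E2F motif. It was −1.65 for the 11 without a match to the letters searched, whose values ran from −3.23 for Orc1 to −0.35 for Rrm1. Variants of the motif were not searched. Among mitosis genes it was −1.20 for the 10 with a CHR motif and −1.22 for the 4 without one. With and without CCAAT it was −1.76 (13 genes) and −1.54 (5 genes) for replication and −1.29 (12 genes) and −0.71 (2 genes) for mitosis. None of these differences was tested. In mitosis promoters the 14 CHR matches had a median position of −18.5 bases from the start, and in replication promoters the 9 E2F matches had one of −110 bases.

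Other genes of the same pathways were listed by function, and their counts stand beside the 21.0% and 24.0% of all genes called lower at day 9 and day 14. Of 44 further replication genes 17 fell at day 9 and 30 at day 14, with 1 risen at day 14, and their median at day 14 was −1.25. Ticrr, which helps Cdc45 onto origins, fell by 2.88 ± 0.07, the helicase gene Recql4 by 2.65 ± 0.06, Uhrf1, which copies DNA methylation at the fork, by 2.59 ± 0.05 and the nuclease gene Dna2 by 2.45 ± 0.08. Of 50 further mitosis genes 17 fell at day 9 and 29 at day 14, none rose, and the median at day 14 was −1.08. Ccnf, cyclin F, fell by 2.50 ± 0.10, the kinetochore gene Zwilch by 2.46 ± 0.06, Espl1, the separase that splits sister chromatids, by 2.39 ± 0.07 and the motor gene Kifc1 by 2.19 ± 0.15. The replication and mitosis medians of these wider lists lay closer together, at −1.25 and −1.08 at day 14 and −0.89 and −0.78 at day 9. For the 22 and 17 genes above they were −1.70 and −1.18 at day 14 and −1.25 and −0.78 at day 9.

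Among 20 genes of the S phase checkpoint and homologous repair 16 fell at each day and none rose, with a median of −1.93 at day 14. Fanci and Fanca, of the Fanconi anaemia pathway that repairs crosslinks, fell by 2.94 ± 0.06 and 2.74 ± 0.04, Brca2, a gene of homologous repair, by 2.39 ± 0.05 and the helicase gene Blm by 2.32 ± 0.05. Of 19 regulators of the E2F, RB and MuvB families 2 fell and 2 rose at day 9, and 5 fell and 1 rose at day 14. Beside the 21.0% lower and 20.1% higher of all genes at day 9, and 24.0% and 22.8% at day 14, these shares were near or below those of all genes. Mybl2, which encodes B-Myb, fell by 4.13 ± 0.06 at day 9 and 4.64 ± 0.06 at day 14. Tfdp2, a DNA-binding partner of E2F factors, fell by 1.93 ± 0.06 and the repressive factor gene E2f4 by 1.29 ± 0.08 at day 14. Rbl2, which encodes p130, the pocket protein of resting cells, rose by 1.31 ± 0.07 at day 14 against mESC and by 1.19 ± 0.07 against day 9. At day 9 the repressors E2f6 and E2f7 rose by 1.36 ± 0.06 and 1.26 ± 0.07.

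Markers of cell types moved beside these genes, and their part in the changes was not tested. The counts of all marker lists stand beside 21.0% of all genes called lower and 20.1% called higher at day 9. At day 14 these shares were 24.0% and 22.8%. The summed level of 8 pluripotent cell markers, in multiples of the array's 75th percentile, was 539 to 582 in mESC, 13.0 to 21.2 on day 9 arrays and 5.62 to 6.98 on day 14 arrays, and 8 of 8 fell at both days. In the same order of groups it was 5.09 to 5.78, 209 to 404 and 203 to 265 for 8 cardiomyocyte markers, of which 8 of 8 rose at both days. For 8 fibroblast markers it was 2.49 to 2.62, 236 to 417 and 535 to 591, where 7 of 8 rose and 1 fell at both days and Col3a1, Dcn, Lum and Postn were below background on all mESC arrays.

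The macrophage markers summed to 1.35 to 1.59 in mESC, 0.275 to 0.370 on day 9 arrays and 15.4 to 19.3 on day 14 arrays; 2 of 8 rose and 1 fell at day 9, and 7 of 8 rose at day 14. In mESC all of them but Cd68 were below background on all arrays, and at day 9 Adgre1, C1qa, Cx3cr1 and Itgam were. The 6 liver and visceral endoderm markers summed to 0.154 to 0.210, 37.7 to 63.8 and 192 to 207 in mESC, at day 9 and at day 14, with 5 of 6 risen at both days and Afp, Ttr, Apoa1 and Fgb below background on all mESC arrays. The pluripotent markers of both days lay far below mESC although the cell type field names embryonic stem cells for every sample; the titles mark both days as differentiated. The arrays do not say which cells held the RNA of the replication and mitosis genes.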

How the data were processed

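Per the file headers, the deposited processed signal is an intensity: spot brightness after background subtraction and detrending within an array by Agilent Feature Extraction (version 12, per the submitters' processing notes), linear and with no scaling from array to array. The deposited median spot signal and its background are uncorrected intensities, per the file headers, and the flags of 0 or 1 mark spots above background, saturated (0 here) or outlying. The deposited series table differed from the array files in 0 values.

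Control and outlier spots were left out, spots of a probe were averaged, and log2 signal was reduced by each array's 75th percentile. RefSeq accessions named 28223 probes, and 12951 stayed unnamed here. Unnamed probes were kept under their array identifier, and those tested count among all genes. A probe was tested if above background on at least 3 of 4 arrays of a group, and the brightest tested probe stood for a gene. Groups were compared with limma 3.58.1 in R 4.3.3 over all 12 arrays, two-sided, with Benjamini-Hochberg adjustment over 20882 genes; the code was tested on simulated data. The number of arrays limits the precision.

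The genes, their classes and the other gene lists were chosen with earlier results of these data known. By rule, array values are given for the 2 largest and the 1 smallest day 14 change of each role, for E2f1, Mki67, Pcna and Ccnb1, and for the largest changes of a class in the other comparisons; of other lists up to 4 called genes are named. Cdc6 between the days was named after its values were seen. Alternatives were normexp (offset 50), quantile and median scaling, the series table, other filters, the mean over probes, fewer arrays, a trended robust prior, a replicate block, no minimum change and other class borders.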

Additional observations from a re-analysis of the deposited data

Results flagged for a closer look

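In 7 of 132 groups of 4 arrays, 1 array stood far from the other 3 relative to the range of its group, and chance alone marks about 5% of such groups. In mESC, Cdt1 read 6.10 on replicate 2 and 6.20 to 6.21 on the other arrays, Prim1 read 4.70 on replicate 3 and 4.59 to 4.61 on the others, and Tyms read 4.30 on replicate 1 and 4.38 to 4.39 on the others. Cdc20 read 5.64 on mESC replicate 3 and 5.59 on each of the others, a gap of 0.05. Aurkb read 0.84 on mESC replicate 4 and 1.29 to 1.33 on the others, the widest of these gaps, and that array is the one that overlaps both days. Mcm3 read 1.68 on day 9 replicate 4 and 1.94 to 1.95 on the others. Cdc45 read −0.93 on day 14 replicate 4 and −0.76 to −0.73 on the others.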

How the results depend on the processing

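Under 22 alternatives the 44 genes gave 2376 values in the 3 comparisons, of which 2320 kept their direction and side of the threshold, 20 lost a call, 18 gained one and 18 turned direction, none of them a called gene. For values that changed, the cause was not tested except where the rule itself sets them. With quantile normalization at day 9 against mESC 10 replication and 1 mitosis genes were called lower, beside 4040 of all 20882 genes. Their class medians were −0.94 and −0.44. At day 14 its medians were −1.33 and −0.71, with a difference of −0.62 and a difference per array of −0.56. Between the days its replication median was −0.43 and its difference −0.15. With normexp the mitosis median was −0.67 at day 9 and −0.99 at day 14, the difference between the classes −0.54, −0.73 and −0.25 in the 3 comparisons, and the difference per array at day 14 −0.59. With median scaling the replication and mitosis medians were −1.38 and −0.91 at day 9, −2.02 and −1.5 at day 14 and −0.70 and −0.51 between the days, with 4 G1/S genes called lower at day 14 and 2 replication genes between the days. With the mean over probes the day 14 replication median was −1.63 and the difference −0.45, the differences per array were −0.47 at day 9 and −0.46 at day 14, and 1 replication gene was called between the days. With no minimum change 16 mitosis and 4 G1/S genes were lower at each day against mESC, and 22, 3 and 12 of replication, G1/S control and mitosis between the days. With G1/S genes counted as replication and without Ccna2 the day 14 median was −1.59 and the difference −0.40, the difference between the days −0.15, and the differences per array −0.47 and −0.42. Leaving out 1 array at a time gave a day 14 replication median of −1.74 to −1.63 and a difference between the classes of −0.55 to −0.47.

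Directions turned in genes that were not called: with quantile normalization Rrm1 (0.071 at day 9, 0.017 at day 14), Ccna2 (0.068, 0.077 and, between the days, 0.0088) and Ccnb2 (0.061 between the days), and with median scaling Mki67 at day 14 against mESC (−0.060). Between the days median scaling turned E2f1 (−0.13), Aurkb (−0.16) and Mki67 (−0.18), normexp turned Cdk2 (0.012), Aurkb (−0.0095) and Mki67 (−0.12), and the mean over probes turned Mki67 (−0.010). Leaving out 1 array at a time, Aurkb ran from −0.053 to 0.079 and Mki67 from −0.037 to 0.042 between the days. Over all 20882 genes, lower calls numbered 4376, 5015 and 752 in the 3 comparisons, and 2632, 3059 and 249 with normexp. Between the days they were 1217 with median scaling. Higher calls numbered 4193, 4761 and 2129, against 2168, 2812 and 988 with normexp. Of the 15898 genes above background on all 12 arrays, 3123, 3865 and 409 were called lower and 2360, 2558 and 896 higher.

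The main test did not pair the arrays by replicate number. Same-numbered arrays of different groups correlated at −0.07 to 0.18 in 12 pairs, and 5 matched best. Replicates 1, 2 and 3 of day 14 and day 9 were among these 5, so the correlations do not settle whether replicates were paired. With a replicate block the counts of genes called lower were 16 for replication, 2 for G1/S control and 5 for mitosis at day 9, and 19, 2 and 10 at day 14, with 0 between the days. Slide and group cannot be told apart under any of these settings.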
